A study of Homo sapiens with 12 samples.

Results

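The integrin subunit genes described here are 5 alpha subunit genes, ITGA2, ITGA3, ITGA5, ITGA6 and ITGAV, and 4 beta subunit genes, ITGB1, ITGB4, ITGB5 and ITGB8. They were taken by name and make up 9 of the 61860 genes in each of the deposited count tables, and 9 of the 26 integrin subunit genes found there. The RNA was that of 22Rv1 cells, a prostate carcinoma line first grown as a xenograft, kept here in medium with serum. In the ETS1 experiment 3 libraries are of cells treated with siRNA targeting ETS1, a transcription factor of the ETS family, and 3 are the controls of that knockdown. A separate experiment had 3 libraries from cells given siRNA against ZNF783, a zinc finger protein, and 3 from its own controls. The labels name neither the control agent nor whether replicates were separate cultures, so the tests read only the variation among these libraries, which may be technical. The siRNA sequences and the harvest time are not given in the sources used here, and all values come from 1 cell line.

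Integrins are adhesion receptors of the cell surface, each built from an alpha and a beta subunit, that bind matrix proteins outside the cell and link to actin or keratin filaments inside it. ITGB1 pairs with many alpha subunits. Among these, ITGA2 makes a collagen receptor, ITGA3 and ITGA6 make laminin receptors, and ITGA5 makes the classical fibronectin receptor. ITGAV pairs with ITGB1, ITGB5 or ITGB8, giving receptors for vitronectin, fibronectin and latent TGF-beta. ITGB4 pairs with ITGA6 in hemidesmosomes, which anchor basal epithelial cells to the basement membrane.

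ETS factors bind DNA around the core GGAA, so the promoter sequence of 3 members is shown, each from 250 bases before to 50 bases after a transcription start (RefSeq, GRCh38.p14). ITGA5 was the member called with ETS1 siRNA over all libraries. ITGAV was called with ZNF783 siRNA, and ITGB5 holds the only match among the member windows to the longer motif CCGGAAGT. The windows are chr12:54419217-54419516 on the minus strand for ITGA5, chr2:186589806-186590105 on the plus strand for ITGAV and chr3:124901369-124901668 on the minus strand for ITGB5. Each reads 5′ to 3′ along the gene, with GGAA and its reverse complement TTCC in capitals.
ITGA5: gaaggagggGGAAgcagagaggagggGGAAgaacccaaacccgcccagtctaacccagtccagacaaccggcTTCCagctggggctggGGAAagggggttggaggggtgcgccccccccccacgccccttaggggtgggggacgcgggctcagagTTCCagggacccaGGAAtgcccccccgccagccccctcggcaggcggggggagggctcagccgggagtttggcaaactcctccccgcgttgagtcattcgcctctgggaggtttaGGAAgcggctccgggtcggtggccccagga
ITGAV: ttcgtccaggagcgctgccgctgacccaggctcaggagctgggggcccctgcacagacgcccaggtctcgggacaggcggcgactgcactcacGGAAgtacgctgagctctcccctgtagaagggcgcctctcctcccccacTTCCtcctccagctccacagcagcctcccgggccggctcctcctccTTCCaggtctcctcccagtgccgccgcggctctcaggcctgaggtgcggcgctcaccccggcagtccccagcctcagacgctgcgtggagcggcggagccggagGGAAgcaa
ITGB5: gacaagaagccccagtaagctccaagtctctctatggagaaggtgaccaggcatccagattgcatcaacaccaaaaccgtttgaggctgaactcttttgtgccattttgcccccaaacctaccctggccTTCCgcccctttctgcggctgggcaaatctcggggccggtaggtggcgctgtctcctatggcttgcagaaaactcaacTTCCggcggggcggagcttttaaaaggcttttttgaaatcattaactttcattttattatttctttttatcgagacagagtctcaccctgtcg
The ITGA5 window, its only one in the RefSeq table, holds 7 GGAA cores on both strands together. ITGAV has 2 windows there, with 4 cores in the one shown and 3 in the other. ITGB5 has 3, with 2 cores in the one shown, which was picked for its CCGGAAGT match, and 2 and 4 in the others. The core is common: 95.5% of 35116 RefSeq promoter windows of the same length hold at least 1, with a median of 3 per window. The extended form CCGGAA, searched on both strands and overlapping the core, is in 17.2% of windows and is absent from the ITGA5 and ITGAV windows shown. CCGGAAGT, which contains both shorter forms, is in 4.14% of windows. These matches describe the letters in the windows and do not show binding. A window was found for 7 of the 9 members, with none for ITGA3 and ITGB4.

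Total counts ran from 13518177 to 48996691 per library. All 9 members passed the filter on low counts in both experiments. The least counted was ITGB4, with 39 to 118 reads per library, and the most counted was ITGB1, with 4505 to 17828. ETS1 itself had 0 to 3 counts in every library, at or under the floor of 3 counts taken for an undetected gene, so its knockdown could not be checked in RNA. ZNF783 averaged 28.0 ± 0.629 CPM in ZNF783 siRNA libraries and 34.8 ± 0.91 CPM in ZNF783 control libraries (mean ± SD, n = 3 each). CPM are counts in 1000000 after TMM scaling. ZNF783 was also lower with ETS1 siRNA, at 16.6 ± 3.53 CPM against 21.6 ± 0.678 CPM in ETS1 control libraries. Each ETS1 siRNA library (12.5, 18.7 and 18.5 CPM) lay below every ETS1 control (21.0 to 22.3 CPM). A fall in ZNF783 was thus seen with both siRNAs, and its cause was not tested. In bulk RNA, fewer cells with a transcript and less transcript per cell cannot be told apart. Luminal prostate markers such as KRT8 and CDH1 were present, while the basal markers KRT5, KRT14 and TP63 were below 1 CPM in all 12 libraries. The other basal markers, KRT15 and NGFR, were counted in every library, at 2.20 to 13.4 CPM and 2.36 to 4.38 CPM. The 9 luminal markers summed to 2855 to 2956 CPM in ETS1 siRNA and 2994 to 3024 CPM in ETS1 control libraries, and to 2981 to 3007 CPM in ZNF783 siRNA and 3217 to 3235 CPM in ZNF783 control libraries. The 5 basal markers summed to 4.75 to 5.26 CPM with ETS1 siRNA, 5.63 to 6.30 CPM in its controls, 11.8 to 13.7 CPM with ZNF783 siRNA and 15.2 to 17.6 CPM in its controls. The part of these shifts in the integrin values was not tested. The leukocyte markers summed to at most 2.82 CPM and the endothelial markers to at most 1.92 CPM in any library, with CD3E listed at 0 counts throughout. The 6 fibroblast markers, mainly LUM and COL1A1, summed to 60.2 to 71.1 CPM in ETS1 siRNA, 60.6 to 62.9 CPM in ETS1 control, 37.4 to 40.7 CPM in ZNF783 siRNA and 43.7 to 47.2 CPM in ZNF783 control libraries. LUM and COL1A1 fell with ZNF783 siRNA (log2 fold change -0.26 and -0.23, adjusted p = 0.0135 and 0.00535, edgeR), and their part in the values of matrix ligands was not tested.

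ETS1 siRNA replicate 1 stood apart from the other libraries, so the tests of the members in that experiment are given with and without it. A chi-square test of its counts against replicates 2 and 3 gave 40.3 and 38.9 per degree of freedom, against 1.36 to 2.93 for every other pair of replicates. Its difference from replicates 2 and 3 followed the GC content of the transcript. The median gene with under 40% GC was 0.21 higher on the log2 scale in replicate 1, and the median gene with over 60% GC fell by 0.32. Among the members, ITGB8, with 37.8% GC, was 0.62 higher and ITGA2, with 40.2% GC, was 0.36 higher on the log2 scale. ITGB5, with 54.3% GC, was -0.44, while ITGAV at 0.01 (38.25% GC) and ITGA5 at -0.05 (54.5% GC) differed little. ITGB1 was at 0.24 (39.98% GC), ITGA6 at 0.12 (42.9% GC) and ITGA3 at -0.19 (61.3% GC). ITGB4, with the highest GC content of the members at 63.7%, was at 0.09, against the trend. Over the 9 members the Spearman correlation of this difference with GC content was -0.617, and over 15474 genes at 1 CPM or more it was -0.481, both as descriptions of 1 library.

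**Figure D1:**
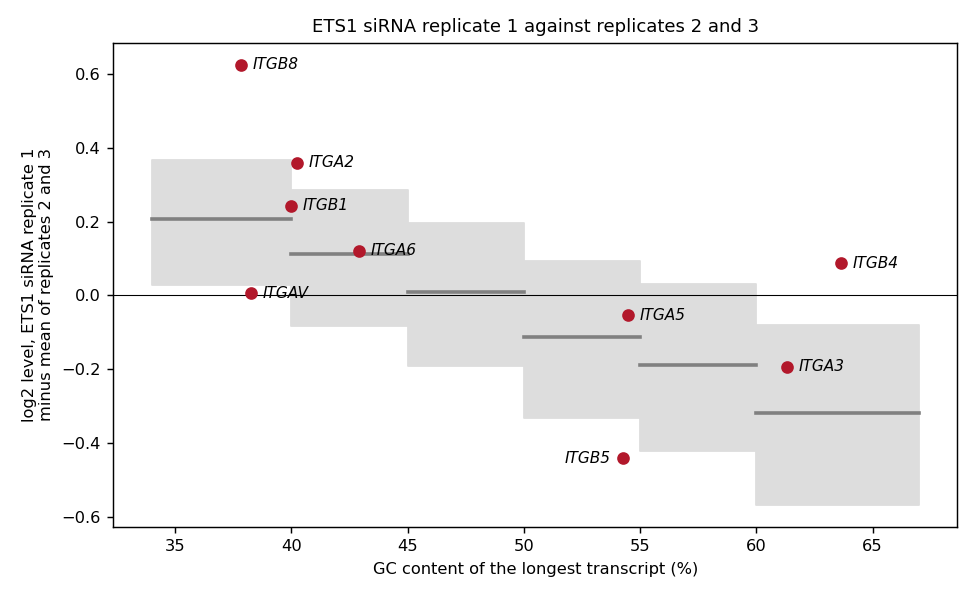
Difference in log2 level between ETS1 siRNA replicate 1 and the mean of ETS1 siRNA replicates 2 and 3 (vertical axis) against GC content of the longest transcript (horizontal axis). Red points are the 9 members; grey lines and boxes are the median and the quartiles of all genes at 1 CPM or more within a range of GC content, and members of low GC content such as ITGB8 (0.62) lie above ITGB5 (-0.44).

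The length-scaled levels of the members spanned a wide range within the same cells. ITGB1 was the most abundant in all 4 groups, at 63.6 ± 6.36 CPM per kb of exon with ETS1 siRNA, 62.0 ± 1.39 in its controls, 54.9 ± 0.423 with ZNF783 siRNA and 54.7 ± 0.90 in its controls (SD, n = 3 each). ITGAV and ITGB5 followed, then ITGA5 and ITGA2, ITGA3 and ITGA6. ITGB8 and ITGB4 were the least abundant, between 0.320 and 0.519 CPM per kb on average. The ranges of ITGA5 and ITGA2 overlapped only with ETS1 siRNA, where they averaged 7.87 and 6.92 CPM per kb. That overlap came from ETS1 siRNA replicate 1, with ITGA2 at 8.12 CPM per kb, against 6.32 and 6.31 in replicates 2 and 3. ITGA5 was at 7.67 to 8.04 CPM per kb in these libraries. ITGB8 and ITGB4 overlapped in ETS1 control and ZNF783 siRNA libraries. The order depends on which length is used. With the longest transcript in place of all exons, a choice made after seeing the data, ITGB5 came before ITGAV in 3 groups and ITGA3 before ITGA2 in both ZNF783 groups.

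**Figure D2:**
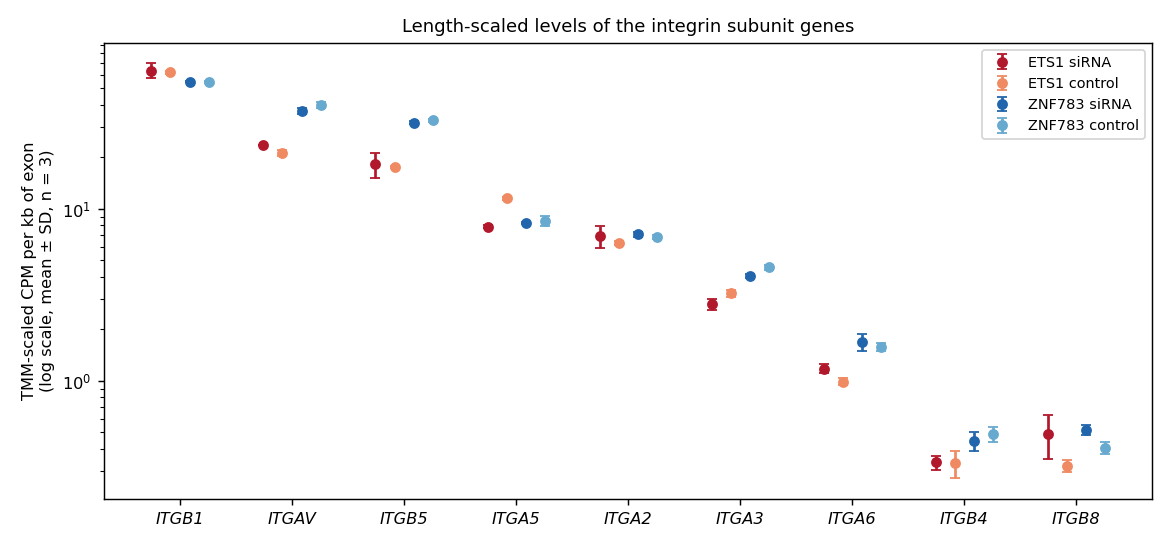
Length-scaled level of each member in TMM-scaled CPM per kb of exon (log axis), as mean ± SD of 3 libraries for ETS1 siRNA, ETS1 control, ZNF783 siRNA and ZNF783 control. ITGB1 lies highest in all 4 groups, and ITGB4 and ITGB8 lie lowest, below 1 CPM per kb.

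The 2 experiments also differed from each other in level. Scaled together over 12 libraries, ITGAV averaged 196.7 CPM with ETS1 siRNA and 177.3 CPM in its controls, against 294.5 CPM with ZNF783 siRNA and 323.6 CPM in its controls. ITGB5 averaged 119.5 CPM with ETS1 siRNA and 115.5 CPM in its controls, against 198.5 CPM with ZNF783 siRNA and 205.9 CPM in its controls. For ITGA5 the ETS1 controls stood above the other 3 groups, at 61.1 CPM with ETS1 siRNA, 89.2 CPM in ETS1 controls, 60.6 CPM with ZNF783 siRNA and 63.3 CPM in ZNF783 controls. Experiment and control agent cannot be told apart between the control groups, so these levels are given without a test and each siRNA is compared with its own controls.

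**Figure D3:**
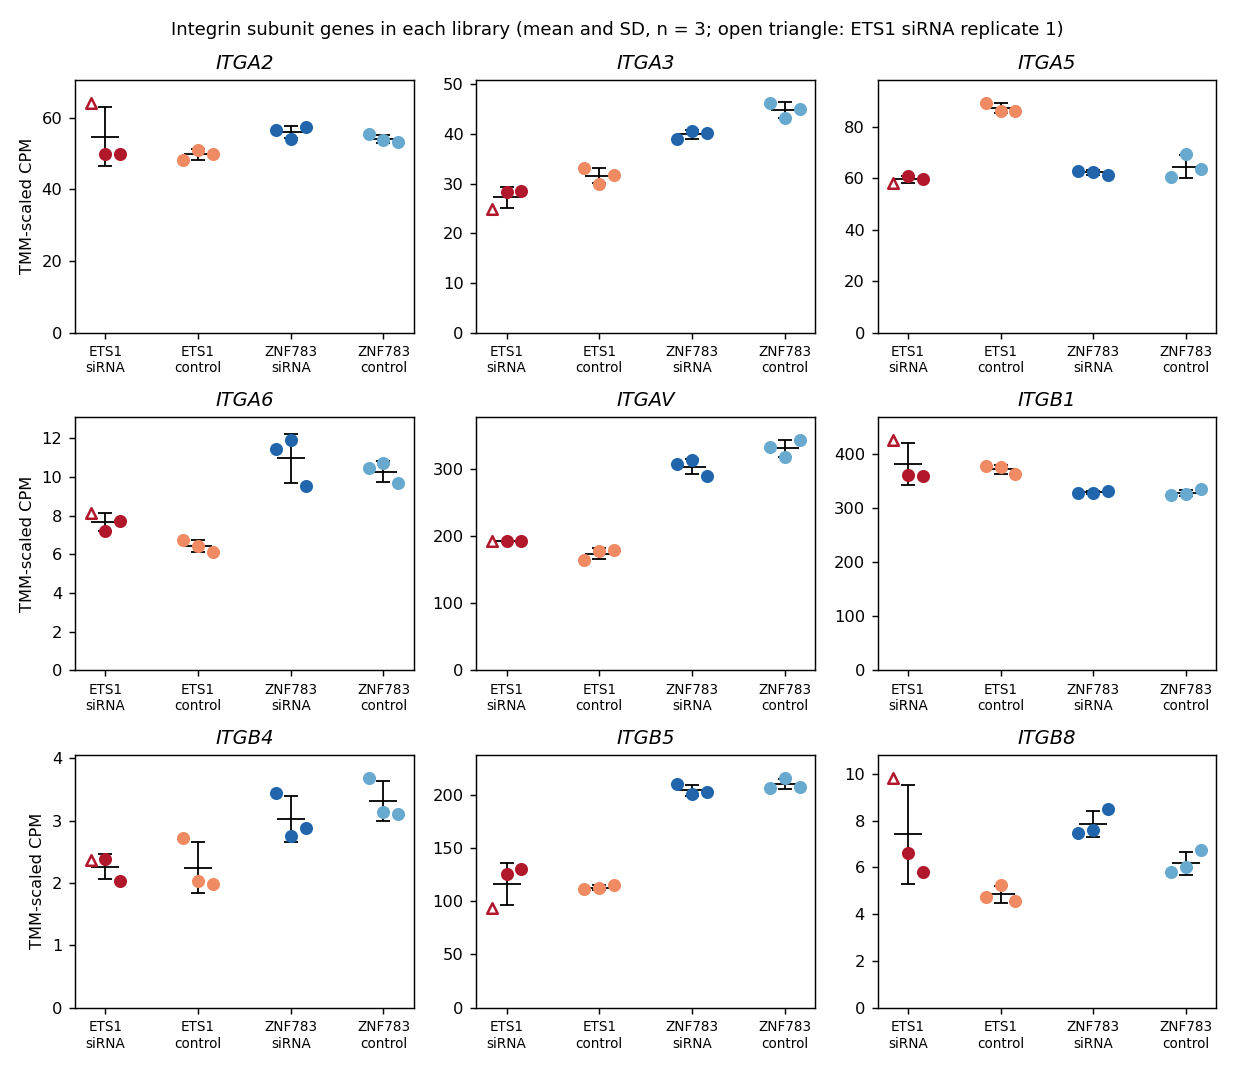
TMM-scaled CPM of each member in every library, grouped as ETS1 siRNA, ETS1 control, ZNF783 siRNA and ZNF783 control; points are libraries, black bars the mean and SD of 3, and the open triangle is ETS1 siRNA replicate 1. ITGA5 is at 58.1 to 60.9 CPM in ETS1 siRNA libraries and at 86.0 to 89.4 CPM in their controls.

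ITGA5, the alpha subunit of the fibronectin receptor, was lower in every ETS1 siRNA library. It had 58.1, 60.9 and 59.8 CPM in ETS1 siRNA replicates 1 to 3, against 89.4, 86.0 and 86.2 CPM in ETS1 control replicates 1 to 3. The groups did not overlap, and replicate 1 lay with the other siRNA libraries. This put ITGA5 at 68.4% of its controls, a log2 fold change of -0.55 with an SE of 0.054, and edgeR's quasi-likelihood test gave an adjusted p of 0.0426. It was the only member called, 1 of 9, where 0.0461% of all 19542 genes tested, or 9 genes, were called at an adjusted p below 0.05. The estimate hardly depended on the library left out, but the call did. The log2 fold change was -0.54 without ETS1 siRNA replicate 1 (adjusted p = 5.5e-18). It was -0.56 without ETS1 siRNA replicate 2 (adjusted p = 0.224), -0.55 without replicate 3 (adjusted p = 0.212), and -0.54, -0.57 and -0.56 without ETS1 control replicates 1, 2 and 3 (adjusted p = 0.498, 0.399 and 0.484). With offsets for GC content and transcript length it was -0.46 (adjusted p = 0.0293). Over all genes, edgeR called 0 on leaving out any library but ETS1 siRNA replicate 1 (1775 to 3851 at an unadjusted p below 0.05). With all libraries kept, the adjusted p of ITGA5 was 2.04e-12 by DESeq2, 1.91e-07 by limma-voom and 0.00013 in the fit of 12 libraries. In edgeR with the replicate number as a block it was 0.291.

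The other alpha subunits moved less with ETS1 siRNA. ITGAV, the alpha subunit of the vitronectin receptors, had 192.5, 191.8 and 191.5 CPM in ETS1 siRNA replicates 1 to 3, against 164.2, 177.5 and 178.2 CPM in ETS1 control replicates 1 to 3. All 3 siRNA libraries lay above all controls, with control replicate 1 the lowest. The log2 fold change was 0.15 ± 0.054 (adjusted p = 0.239) over all libraries and 0.14 ± 0.031 (adjusted p = 0.000637) without ETS1 siRNA replicate 1. With GC and length offsets the value turned to -0.02 (adjusted p = 0.886) over all libraries and was 0.04 (adjusted p = 0.326) without replicate 1. ITGA3, a laminin receptor subunit, had 24.8, 28.3 and 28.6 CPM in ETS1 siRNA replicates 1 to 3, against 33.1, 30.0 and 31.8 CPM in ETS1 control replicates 1 to 3. The groups did not overlap, and the lowest value was that of siRNA replicate 1. Its log2 fold change was -0.21 (adjusted p = 0.247), and -0.16 (adjusted p = 0.0101) without that library, but -0.06 (adjusted p = 0.423) when GC and length offsets were added. ITGA6, the laminin receptor subunit that also pairs with ITGB4, had 8.15, 7.21 and 7.70 CPM in ETS1 siRNA replicates 1 to 3 and 6.74, 6.44 and 6.13 CPM in ETS1 control replicates 1 to 3. The siRNA libraries were all above the controls, yet the log2 fold change of 0.25 ± 0.093 did not pass the test (adjusted p = 0.241, and 0.107 without replicate 1). ITGA2, the collagen receptor subunit, had 64.2, 49.97 and 49.91 CPM in ETS1 siRNA replicates 1 to 3 and 48.3, 51.1 and 49.9 CPM in ETS1 control replicates 1 to 3. Only siRNA replicate 1 lay above the controls. The log2 fold change was 0.13 ± 0.11 (adjusted p = 0.495) over all libraries, and without replicate 1 it was -0.0021 ± 0.040 (adjusted p = 0.981).

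Among the beta subunits, edgeR called neither ITGB8 nor ITGB5 with ETS1 siRNA over the 6 libraries of that experiment, and called both without replicate 1. With replicate 1 kept, limma-voom with quality weights called both (adjusted p = 0.00934 for ITGB8 and 0.00806 for ITGB5), and the fit of all 12 libraries called ITGB8 (adjusted p = 0.0362). ITGB8, whose product joins ITGAV in a receptor for latent TGF-beta, had 9.83, 6.60 and 5.82 CPM in ETS1 siRNA replicates 1 to 3, against 4.73, 5.25 and 4.56 CPM in ETS1 control replicates 1 to 3. All siRNA libraries were above the controls, with replicate 1 far above the others. The log2 fold change was 0.60 ± 0.20 (adjusted p = 0.215) over all libraries and 0.36 ± 0.10 (adjusted p = 0.00669) without replicate 1, at 85 to 326 reads per library over the study. With GC and length offsets and without replicate 1 it was 0.26 (adjusted p = 0.0643). ITGB5, the beta subunit of a vitronectin receptor, had 94.0, 125.4 and 130.4 CPM in ETS1 siRNA replicates 1 to 3, against 111.4, 112.3 and 115.2 CPM in ETS1 control replicates 1 to 3. Replicate 1 lay below every control and replicates 2 and 3 above every control. The log2 fold change was 0.05 ± 0.12 (adjusted p = 0.838) over all libraries and 0.17 ± 0.032 (adjusted p = 3.65e-05) without replicate 1, and 0.22 (adjusted p = 1.31e-08) without it and with GC and length offsets. ITGB1, the common partner, had 426.3, 361.0 and 359.2 CPM in ETS1 siRNA replicates 1 to 3 and 378.9, 376.3 and 363.3 CPM in ETS1 control replicates 1 to 3. Its groups overlapped, with a log2 fold change of 0.04 ± 0.077 (adjusted p = 0.81), which turned to -0.06 (adjusted p = 0.158) without replicate 1 and to -0.12 (adjusted p = 4e-05) without it and with offsets. ITGB4, the hemidesmosome subunit, was at 2.03 to 2.39 CPM in ETS1 siRNA and 1.98 to 2.71 CPM in ETS1 control libraries. These ranges overlapped, with a log2 fold change of 0.02 ± 0.16 (adjusted p = 0.958), and -0.0023 (adjusted p = 0.994) without replicate 1.

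Over all 6 libraries of the ETS1 experiment, 3 members lay wholly above and 2 wholly below their controls, and 35.3% of all genes tested had groups that did not overlap. The median log2 fold change of the 9 members was 0.05, beside 0.01 over all genes tested, and -0.02 with GC and length offsets. Without ETS1 siRNA replicate 1, 5 of 9 members were called, ITGA5 and ITGA3 lower and ITGAV, ITGB5 and ITGB8 higher, where 23.0% of 20237 genes were called. With GC and length offsets as well, 3 were called, ITGA5 and ITGB1 lower and ITGB5 higher, where 19.5% of genes were called. ITGA5 and ITGB5 were the members called in the same direction under both of these settings.

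**Figure D4:**
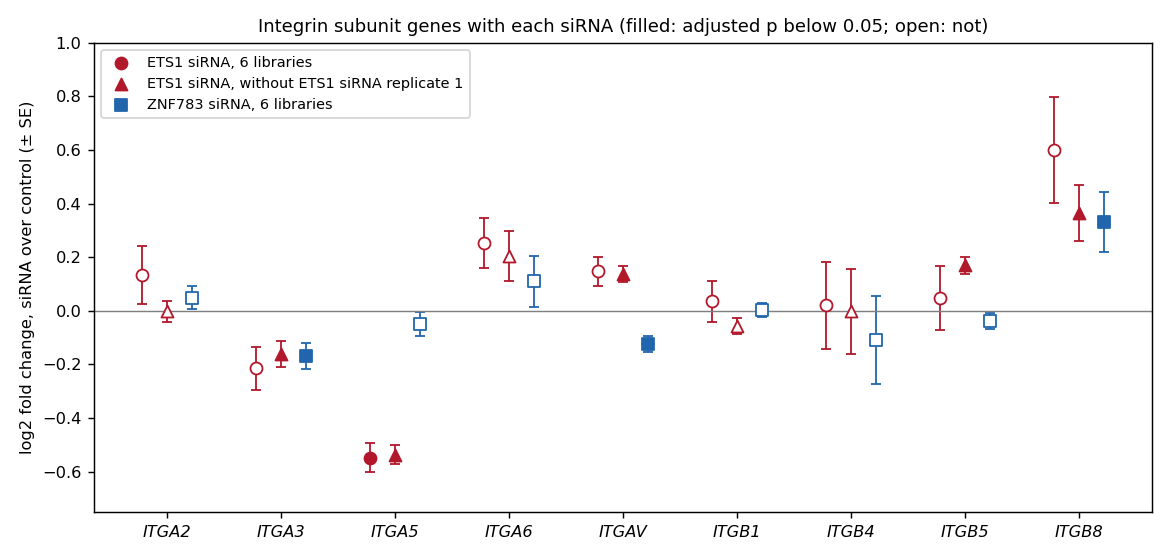
Log2 fold change of each member, siRNA over its own controls (± SE), for ETS1 siRNA over 6 libraries (circles), ETS1 siRNA without ETS1 siRNA replicate 1 (triangles) and ZNF783 siRNA over 6 libraries (squares); filled symbols have an adjusted p below 0.05. ITGA5 is at -0.55 with ETS1 siRNA and at -0.05 with ZNF783 siRNA, and ITGAV is at 0.15 and -0.12.

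With ZNF783 siRNA, 3 of 9 members were called, ITGAV and ITGA3 lower and ITGB8 higher, where 25.1% of 17630 genes tested were called. ITGAV had 307.3, 312.0 and 289.5 CPM in ZNF783 siRNA replicates 1 to 3, against 332.0, 316.8 and 342.0 CPM in ZNF783 control replicates 1 to 3. Every siRNA library was below every control, though siRNA replicate 2 and control replicate 2 were close. The log2 fold change was -0.12 ± 0.030 (adjusted p = 0.00152), or 91.8% of controls, and the call held on leaving out each library (adjusted p = 6.90e-05 to 0.0349) and with GC and length offsets (-0.20, adjusted p = 2.18e-08). ITGA3 had 38.9, 40.7 and 40.1 CPM in ZNF783 siRNA replicates 1 to 3, against 46.3, 43.1 and 44.99 CPM in ZNF783 control replicates 1 to 3. The groups did not overlap, and the log2 fold change was -0.17 ± 0.048 (adjusted p = 0.00697). The call was lost without ZNF783 siRNA replicate 1 (-0.15, adjusted p = 0.0623), without ZNF783 control replicate 1 (-0.14, adjusted p = 0.0607) and with GC and length offsets (-0.06, adjusted p = 0.454). ITGB8 had 7.47, 7.61 and 8.49 CPM in ZNF783 siRNA replicates 1 to 3, against 5.80, 6.00 and 6.74 CPM in ZNF783 control replicates 1 to 3. All siRNA libraries were above all controls, and the log2 fold change was 0.33 ± 0.11 (adjusted p = 0.0246). That call was lost without ZNF783 siRNA replicate 3 (0.28, adjusted p = 0.0996), without ZNF783 control replicates 1 (0.29, adjusted p = 0.101) or 2 (0.31, adjusted p = 0.0731), and with GC and length offsets (0.25, adjusted p = 0.111). DESeq2 called ITGAV alone of these 3, and the fit of all 12 libraries called none of them (adjusted p = 0.14 for ITGAV, 0.161 for ITGA3 and 0.377 for ITGB8). With GC and length offsets 2 of 9 members were called, ITGAV and ITGB1, where 19.3% of genes were called.

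The remaining 6 members overlapped between ZNF783 siRNA and control libraries. ITGA5 had 63.0, 62.6 and 61.3 CPM in ZNF783 siRNA replicates 1 to 3, against 60.5, 69.4 and 63.8 CPM in ZNF783 control replicates 1 to 3. Control replicate 2 was the highest of these, and the log2 fold change was -0.05 ± 0.044 (adjusted p = 0.466). ITGB1 was at 327.9 to 332.7 CPM in ZNF783 siRNA and 325.2 to 335.1 CPM in ZNF783 control libraries, with a log2 fold change of 0.00 ± 0.026 (adjusted p = 0.954) that turned to -0.07 (adjusted p = 0.0185) with GC and length offsets. ITGB5 was at 200.3 to 209.8 CPM in ZNF783 siRNA and 206.8 to 215.9 CPM in ZNF783 control libraries (log2 fold change -0.04, adjusted p = 0.359). ITGA2, ITGA6 and ITGB4 had log2 fold changes of 0.05, 0.11 and -0.11 (adjusted p = 0.45, 0.443 and 0.701). In all, 38.2% of genes tested had groups that did not overlap in this experiment. The median log2 fold change of the 9 members was -0.04, beside 0.00 over all genes tested.

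The effects of both siRNAs were then compared in 1 fit of all 12 libraries. ITGA5 differed: its ETS1 siRNA effect minus its ZNF783 siRNA effect was -0.48 ± 0.075 on the log2 scale (adjusted p = 0.00629). It was the only member called, 1 of 9, where 1.68% of 19594 genes were called. The call held on leaving out each library in turn (adjusted p = 4.26e-09 to 0.0307) and with GC and length offsets (-0.46, adjusted p = 0.00232). It was lost with the replicate number as a block, where 0 members and 54 of 19594 genes were called. For ITGAV the difference was 0.29 ± 0.066 (adjusted p = 0.051), the ETS1 siRNA value being above 0 and the ZNF783 siRNA value below it. Without ETS1 siRNA replicate 1 it was 0.26 ± 0.047 (adjusted p = 0.000194), and ITGB5 differed by 0.21 ± 0.042 (adjusted p = 0.000304). There 3 of 9 members were called, where 13.7% of 20018 genes were called. With GC and length offsets over all 12 libraries the ITGAV difference was 0.18 (adjusted p = 0.261), and with the offsets and without replicate 1 it was 0.25 (adjusted p = 0.000117). For ITGB8, called with ZNF783 siRNA and, without replicate 1, with ETS1 siRNA, the difference between the effects was 0.27 ± 0.24 over 12 libraries and 0.03 ± 0.15 without replicate 1 (adjusted p = 0.649 and 0.932). For ITGA3 it was -0.03 ± 0.091 over 12 libraries (adjusted p = 0.904).

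The make-up of the alpha subunit transcripts shifted with ETS1 siRNA. Of the summed CPM per kb of the 5 alpha members, ITGA5 took 18.7 ± 0.76% in ETS1 siRNA and 26.7 ± 1.02% in ETS1 control libraries, and ITGAV took 55.5 ± 0.875% in ETS1 siRNA and 48.9 ± 1.44% in ETS1 control libraries (SD, n = 3 each). ITGA5 ranged from 17.8 to 19.3% with the siRNA and from 26.1 to 27.9% in the controls, without overlap. Replicates 2 and 3 of the siRNA had 19.3 and 19.0% for ITGA5 and 56.0% each for ITGAV. The shares are parts of the same sum, so a fall in ITGA5 alone raises the share of ITGAV. The log2 fold change of ITGAV itself was 0.15 (adjusted p = 0.239, edgeR), and -0.02 with GC and length offsets (adjusted p = 0.886). With ZNF783 siRNA, ITGA5 took 14.2 ± 0.206% and in its controls 13.8 ± 1.16%, and the ranges overlapped. The ratio of ITGA5 to ITGB1, its only partner, was 0.125 ± 0.0144 in ETS1 siRNA and 0.186 ± 0.0038 in ETS1 control libraries, and 0.150 ± 0.0033 in ZNF783 siRNA and 0.156 ± 0.0114 in ZNF783 control libraries. It was 0.108 in ETS1 siRNA replicate 1 and 0.134 and 0.132 in replicates 2 and 3, all below the controls. ITGB5 per ITGAV stayed within overlapping ranges in both experiments, at 0.774 ± 0.133 in ETS1 siRNA and 0.831 ± 0.0299 in ETS1 control libraries, with 0.622 in ETS1 siRNA replicate 1 and 0.833 and 0.867 in replicates 2 and 3. The smallest 2-sided p of an exact permutation test of 3 against 3 libraries is 0.1, so these ratios are given without a test.

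**Figure D5:**
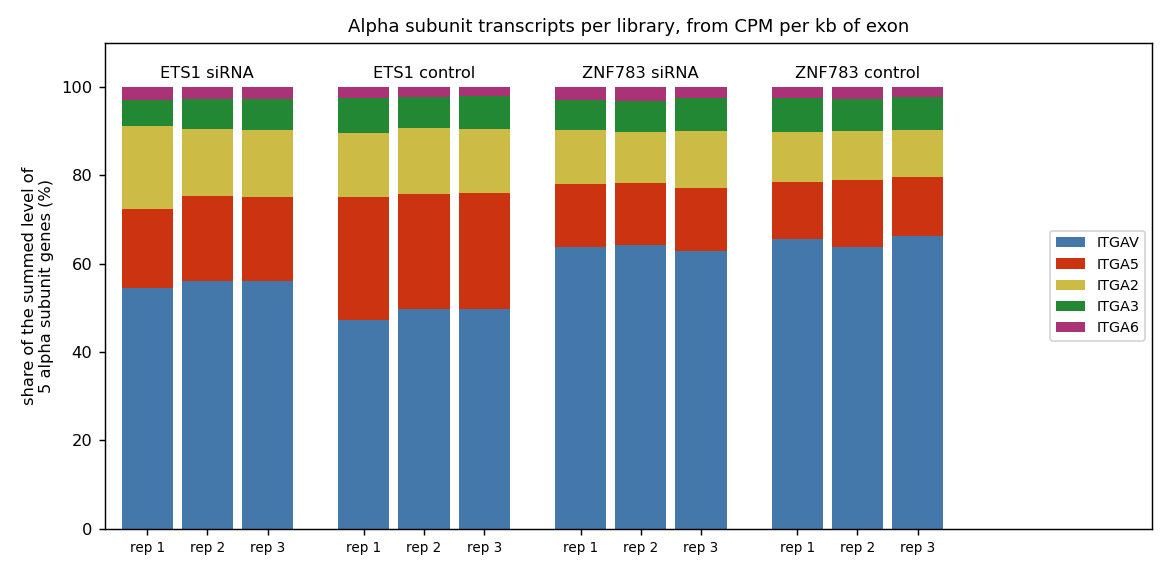
Share of each alpha subunit gene in the summed CPM per kb of the 5 alpha members (stacked bars, %), 1 bar per library, for ETS1 siRNA, ETS1 control, ZNF783 siRNA and ZNF783 control. ITGA5 takes 17.8 to 19.3% in ETS1 siRNA libraries and 26.1 to 27.9% in their controls.

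Of the 17 other integrin subunit genes, 11 passed the filter in the ETS1 experiment and 12 in the ZNF783 experiment. ITGAE and ITGA1 were the most counted, at up to 26.2 and 26.1 CPM, while ITGB3, ITGB6, ITGAM, ITGAX and ITGAD stayed below 1 CPM in every library. With edgeR, 0 of the 11 were called with ETS1 siRNA over all libraries, 3 had an unadjusted p below 0.05, and 0 were called by DESeq2. Of all 19542 genes tested there, edgeR called 9, 3535 had an unadjusted p below 0.05 and DESeq2 called 734. Without ETS1 siRNA replicate 1, 2 of 12 were called, below the 23.0% of all genes called there. ITGA7, a laminin receptor subunit of muscle, fell (log2 fold change -0.33, adjusted p = 0.00176), at 7.88 ± 0.0707 CPM in all 3 ETS1 siRNA and 9.90 ± 0.21 CPM in ETS1 control libraries, and ITGA4 rose (0.36, adjusted p = 0.0189). With ZNF783 siRNA, where edgeR called 25.1% of all genes, 0 of 12 were called by edgeR or DESeq2, and 2 had an unadjusted p below 0.05 in edgeR. Of all 17630 genes tested there, 6222 had such an unadjusted p and DESeq2 called 2718.

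Of the matrix ligands of integrins, 6 of 25 tested differed between the siRNAs, where 1.68% of all genes did. In this comparison of the effects 5 were higher and 1 lower with ETS1 siRNA relative to ZNF783 siRNA, with a median difference of 0.34 beside 0.01 over all genes, and 11 were higher and 1 lower without ETS1 siRNA replicate 1, where 13.7% of all genes were called. Leaving out any 1 of the other 11 libraries in turn gave 2 to 5 higher and 0 lower (9 or 10 higher and 1 or 2 lower at an unadjusted p below 0.05). Over all genes these fits called 140 to 372, with 2422 to 3562 at an unadjusted p below 0.05. The fit with a replicate block gave 2 higher and 0 lower, where 54 of 19594 genes were called. DESeq2 called 5 higher and 1 lower, where 663 of 19594 genes were called. The list was chosen with earlier results of these data known, and the difference is given here without GC and length offsets. THBS1, which encodes thrombospondin 1, a matrix glycoprotein that binds several integrins, averaged 116.7 ± 0.997 CPM in ETS1 siRNA and 84.4 ± 2.45 CPM in ETS1 control libraries, and 101.5 ± 3.15 CPM in ZNF783 siRNA and 133.8 ± 3.68 CPM in ZNF783 control libraries. Its log2 fold change was 0.47 with ETS1 siRNA (adjusted p = 0.0504) and -0.40 with ZNF783 siRNA (adjusted p = 1.61e-12), a difference of 0.88 (adjusted p = 2.56e-05). Without ETS1 siRNA replicate 1 these were 0.45 with ETS1 siRNA (adjusted p = 1.48e-16) and a difference of 0.85 (adjusted p = 6.16e-20). FN1, which encodes fibronectin, the main ligand of the ITGA5 and ITGB1 receptor, averaged 64.9 ± 8.52 CPM in ETS1 siRNA and 52.1 ± 1.12 CPM in ETS1 control libraries, and 31.9 ± 0.395 CPM in ZNF783 siRNA and 37.4 ± 0.665 CPM in ZNF783 control libraries. The difference between its effects was 0.56 (adjusted p = 0.0231), with a log2 fold change of 0.31 (adjusted p = 0.195) with ETS1 siRNA and -0.23 (adjusted p = 0.000755) with ZNF783 siRNA. Without ETS1 siRNA replicate 1, FN1 was at 0.20 with ETS1 siRNA (adjusted p = 5.45e-05) and the difference was 0.43 (adjusted p = 1.00e-06). LAMC1, a laminin chain, differed by 0.42 (adjusted p = 0.00461), and by 0.35 (adjusted p = 2.57e-11) without that library. In the single comparisons, 10 of 22 tested ligands fell and 1 rose with ZNF783 siRNA, where 25.1% of all genes were called, and 6 fell and 2 rose with GC and length offsets, where 19.3% were. With ETS1 siRNA 0 of 25 were called by edgeR over all libraries (7 at an unadjusted p below 0.05, and 3 called by DESeq2). Of all 19542 genes, edgeR called 9 there, 3535 had an unadjusted p below 0.05 and DESeq2 called 734. Without replicate 1, 6 ligands rose and 3 fell, where 23.0% of all genes were called.

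Counts for proteins that act with integrins at the membrane or inside the cell are set beside those of all genes, of which 2016 rose and 2633 fell with ETS1 siRNA without replicate 1 (23.0% called), and 1993 rose and 2435 fell with ZNF783 siRNA (25.1% called). With ZNF783 siRNA, 2911 genes rose at an unadjusted p below 0.05 in edgeR, and DESeq2 called 1237 as higher. Of 17 tetraspanins and other membrane partners, 8 fell and 1 rose with ETS1 siRNA without replicate 1, and 9 of 16 fell and 0 rose with ZNF783 siRNA (0 rose at an unadjusted p below 0.05, or by DESeq2). Their median log2 fold changes were -0.13 and -0.15, beside 0.00 over all genes in both. The genes included CD9, a tetraspanin found in complexes with integrins, with log2 fold changes of -0.21 (adjusted p = 3.09e-07) and -0.23 (adjusted p = 1.82e-08), and SDC1, a syndecan that binds matrix beside integrins, at -0.18 (adjusted p = 1.28e-05) and -0.25 (adjusted p = 8.01e-09). The first value of each is that of ETS1 siRNA without replicate 1 and the second that of ZNF783 siRNA. With GC and length offsets these counts were 6 lower and 2 higher with ETS1 siRNA, where 19.5% of all genes were called, and 7 lower and 1 higher with ZNF783 siRNA, where 19.3% were. Of 34 activators and adaptors tested, 12 fell and 4 rose with ETS1 siRNA without replicate 1. PARVA, which encodes a parvin that joins integrin-linked kinase to actin, was at -0.35 on the log2 scale (adjusted p = 2.69e-12), and ZYX, a focal adhesion protein, had -0.52 (adjusted p = 6.46e-11). The median of the 34 was -0.07. With ZNF783 siRNA 10 of 34 fell and 0 rose (4 had an unadjusted p below 0.05 in that direction, and 0 were called by DESeq2), FLNA, an actin crosslinker that binds beta subunit tails, at -0.20 (adjusted p = 1.91e-06). That count is near the share of all genes called, the median was -0.04, and with offsets 6 fell and 4 rose. Over all 6 ETS1 libraries edgeR called 0 of the 17 membrane partners and 0 of the 34 adaptors. At an unadjusted p below 0.05 there were 5 and 11, and DESeq2 called 1 and 2. Of all 19542 genes, edgeR called 9 there, 3535 had an unadjusted p below 0.05 and DESeq2 called 734. Of 8 tested genes for latent TGF-beta and its receptors and binding proteins, 3 rose and 3 fell with ETS1 siRNA without replicate 1, and 1 of 7 rose and 1 fell with ZNF783 siRNA. Over all 6 ETS1 libraries edgeR called 0 of these 8 (3 at an unadjusted p below 0.05; DESeq2 called 1).

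The genes most like a member in pattern were found among 10295 genes averaging 10 CPM or more, by Pearson correlation of log2 level centred within each experiment over 12 libraries, which share their groups and the departure of replicate 1. For ITGA5 the closest were GRN, MAF1 and GLYR1 (r = 0.987, 0.978 and 0.974). Without ETS1 siRNA replicate 1 they were GRN, BCOR and NUP210 (r = 0.983, 0.982 and 0.977). For ITGAV they were FAR1, BCHE and PAQR3 (r = 0.942, 0.941 and 0.928), and GULP1 and BCHE were among the closest without that library (r = 0.95 and 0.946). Between the members compared, ITGB1 and ITGB5 had the strongest correlation over 12 libraries, with r = -0.921, and -0.767 without that library. Without it the strongest was that of ITGA5 and ITGB5 (r = -0.792). ITGA2 and ITGB1 had r = 0.860 over 12 libraries and -0.128 without that library, so pair values depend on it.

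The reads were counted with no strand option in the file header, so reads from overlapping genes on the opposite strand were not told apart. In GENCODE release 29 of GRCh38, ITGA5 lies at chr12:54395261-54419460 on the minus strand and shares 48 exon bases with GPR84-AS1, which had 0 to 7 counts in any library. ITGAV lies at chr2:186590065-186680901 on the plus strand and shares 203 exon bases with a gene of 1 to 3 counts. ITGB8 lies at chr7:20330702-20415754 on the plus strand and shares 98 exon bases with ITGB8-AS1, which had 0 to 15 counts. ITGA6 shares 351 exon bases with genes of at most 6 counts and ITGB1 42 with ITGB1-DT, of 2 to 9 counts. ITGB1 has a processed copy, ITGB1P1, with 198 to 722 counts per library, so ITGB1 reads may be split between them. ITGB5, at chr3:124761948-124901418 on the minus strand, ITGA2, ITGA3 and ITGB4 share no exon bases with another annotated gene.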

How the data were processed

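Libraries of total RNA were made with a directional kit, per the labels' protocols. The deposited files hold raw counts of reads for each gene, 1 table per experiment. Per the file headers, featureCounts 2.0.1 was run over exons in paired-end mode with a GRCh38 annotation, release 107, and no strand option was set. The alignment files are named for hisat, of unstated version, and the submitters' processing notes name hg38.

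The tests used edgeR 4.0.16 in R 4.3.3 on all genes of each table (filterByExpr, TMM scaling, robust quasi-likelihood fit, group as the only term), with Benjamini-Hochberg adjustment over every gene tested and calls at an adjusted p below 0.05. The SE is the log2 fold change divided by the root of F. The difference of the effects was a contrast over 12 libraries. Alternatives were DESeq2 size factors, library size alone, no filter, the DESeq2 1.42.0 Wald test, limma-voom (limma 3.58.1) with quality weights, the replicate number as a block, offsets for GC content and transcript length, a fit of 12 libraries, and leaving out each library. The test script was tested on simulated data. Levels per kb use the exon unions of GENCODE release 29, and 97.0% and 97.9% of the genes tested in the ETS1 and ZNF783 experiments had a GC content and length.

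Groups and replicate numbers come from the labels. The members and lists were chosen with earlier results of these data known. All members are named, and of each list at most 4 genes with the smallest adjusted p in a comparison; marker genes and integrin subunits named for their level were chosen after their values were seen. The floor of 3 counts, 0.0612 to 0.222 CPM, covers counting error only, since PCR copies are not independent molecules. Every replicate pair differed by at least 1.36 in chi-square per degree of freedom, and none was merged. Some items are not reported here.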

Additional observations from a re-analysis of the deposited data

Results flagged for a closer look

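The effect of ETS1 siRNA on ITGA5 differed from that of ZNF783 siRNA in the test of the difference itself, by -0.48 on the log2 scale over 12 libraries (adjusted p = 0.00629, edgeR) and by -0.49 without ETS1 siRNA replicate 1 (adjusted p = 4.26e-09). This difference was not called with the replicate number as a block. All 3 ETS1 siRNA libraries lay below their controls, while the ZNF783 groups overlapped. ITGAV differed by 0.26 without ETS1 siRNA replicate 1 (adjusted p = 0.000194), but was not called over 12 libraries (0.29, adjusted p = 0.051, edgeR). Every ETS1 siRNA library was above its controls for ITGAV and every ZNF783 siRNA library below its own. ITGB5 differed by 0.21 without ETS1 siRNA replicate 1 (adjusted p = 0.000304), and was likewise not called over 12 libraries. The remaining 2 ETS1 siRNA libraries lay above their controls for ITGB5. The library left out, at 94.0 CPM, lay below every ETS1 control (111.4 to 115.2 CPM).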

How the results depend on the processing

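Of the values recomputed under alternatives, 372 kept their direction and side of the threshold, 18 became stronger, 19 weaker and 32 changed sign; the cause was not tested. With ETS1 siRNA, 1 member was called, against 5 by limma-voom, 2 in a fit of 12 libraries, 3 with GC and length offsets without ETS1 siRNA replicate 1, and 0 to 5 leaving out 1 library. Over all genes 9 were called, against 253 without a filter, 734 by DESeq2, 3863 by limma-voom, 38 with offsets, 1875 in the fit of 12 libraries, 3947 with offsets without ETS1 siRNA replicate 1, and 0 to 4649 leaving out 1 library (0 in edgeR leaving out any library but ETS1 siRNA replicate 1, with 1775 to 3851 at an unadjusted p below 0.05). With ZNF783 siRNA, 3 members were called, against 1 by DESeq2, 0 in the fit of 12 libraries and 1 to 3 leaving out 1 library. Over all genes 4428 were called there, against 2718 by DESeq2, 824 in the fit of 12 libraries and 3485 to 4127 leaving out 1 library. For the difference, 1 member was called, against 2 with library size alone, 2 by DESeq2 and 3 by limma-voom. There were 3 with offsets without ETS1 siRNA replicate 1, and 1 to 3 leaving out 1 library. Over all genes 330 were called for the difference, against 342 with library size alone, 978 without a filter, 663 by DESeq2 and 2503 by limma-voom. The number was 716 with offsets, 3188 with offsets without ETS1 siRNA replicate 1, and 140 to 2735 leaving out 1 library.

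The labels do not say whether libraries with the same replicate number were paired. Deviations of same-numbered libraries correlated at 0.0601, -0.102 and 0.148 in the ETS1 experiment and at -0.0331, -0.0082 and -0.0064 in the ZNF783 experiment. In the ETS1 experiment the departure of ETS1 siRNA replicate 1 enters these deviations, so they cannot settle whether the libraries were paired. With the replicate number as a block, 0 members and 0 genes were called with ETS1 siRNA (edgeR; 3139 genes at an unadjusted p below 0.05), ITGA5 having an adjusted p of 0.291, and for the difference 0 members and 54 genes, ITGA5 having an adjusted p of 0.0603.

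Values that changed sign, on the log2 scale, follow. With ETS1 siRNA, GC and length offsets gave -0.0175 for ITGA2, -0.0237 for ITGAV and -0.0941 for ITGB1, limma-voom -0.0462 for ITGB1, and offsets without ETS1 siRNA replicate 1 -0.0747 for ITGA2 and -0.1218 for ITGB1. Leaving out 1 library gave -0.0021 to 0.1956 for ITGA2, -0.0563 to 0.0755 for ITGB1, -0.0692 to 0.1692 for ITGB4 and -0.0434 to 0.1704 for ITGB5. With ZNF783 siRNA, offsets gave -0.0209 for ITGA2, -0.0719 for ITGB1, 0.0263 for ITGB4 and 0.0019 for ITGB5, and the fit of 12 libraries -0.0078 for ITGB1. Leaving out 1 library gave -0.088 to 0.0073 for ITGA5 and -0.0022 to 0.0174 for ITGB1. For the difference, limma-voom gave -0.0277 for ITGA2, 0.0318 for ITGA3 and -0.0381 for ITGB1, offsets 0.0065 for ITGA3 and -0.0225 for ITGB1, and offsets without ETS1 siRNA replicate 1 -0.0538 for ITGA2 and -0.0502 for ITGB1. Leaving out 1 library gave -0.0525 to 0.1574 for ITGA2, -0.0702 to 0.0061 for ITGA3 and -0.0602 to 0.0896 for ITGB1. Low counts limit ITGB4, ITGB8 and ITGA6, and ETS1 could not be measured.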
